A study of Mus musculus with 12 samples.

Results

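The genes described are 43 interferon-stimulated genes (ISGs) outside the guanylate-binding protein and immunity-related GTPase families, out of 32699 gene symbols in the deposited table. They were chosen by name, from a list of classical interferon-induced genes, with earlier results of these data known. Shares of the 43, and of the other gene lists below, are therefore no independent support when set beside those of all tested genes. All 43 were found and passed the filter on low counts. They fall into 9 roles: transcription factors (Irf1, Irf7, Irf9), sensors of foreign nucleic acid and double-stranded RNA enzymes (Ifih1, Ddx58, Zbp1, Eif2ak2, Adar), the oligoadenylate synthetase family (Oas1a, Oas2, Oas3, Oasl1, Oasl2), IFIT proteins (Ifit1, Ifit2, Ifit3), other direct antiviral effectors (Mx1, Mx2, Rsad2, Cmpk2, Isg20, Bst2, Ifitm3, Samd9l), ISG15 with ubiquitin and ADP-ribose enzymes (Isg15, Usp18, Herc6, Trim21, Trim25, Trim30a, Parp9, Parp14, Dtx3l), antigen processing (Psmb8, Psmb9, Tap1), chemokines (Cxcl9, Cxcl10) and other induced genes (Ifi44, Ifi35, Ifi27l2a, Xaf1, Rtp4). Mx1 and Mx2 encode dynamin-like GTPases themselves, of a family other than the ones left out.

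RNA-seq libraries had been made from mouse splenic B cells of 2 genotypes, Chd4 knockout (KO) and wild type (WT). CHD4 is an ATP-dependent chromatin remodeller of the nucleosome remodelling and deacetylase complex. The cells were either stimulated in culture for 48 hr or left unstimulated (0 hr). The stimulus was lipopolysaccharide (LPS) at 10 µg/ml, a cell wall component of bacteria that activates B cells, together with mouse interleukin 4 (IL-4) at 25 ng/ml, a T helper cytokine. No group was kept in culture for 48 hr without LPS and IL-4, so the stimulus and the time in culture cannot be told apart. Below, a change with stimulation stands for 48 hr against 0 hr. The 4 groups held 3 libraries each: KO 48 hr (replicates 10 to 12), WT 48 hr (7 to 9), KO 0 hr (4 to 6) and WT 0 hr (1 to 3). The labels do not give the allele, any Cre driver, the strain, the age or the sex of the mice, nor whether the libraries came from separate animals. The spread that the p-values are based on is that between these libraries, which may be technical.

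Total estimated counts per library were 39.0 M to 53.2 M, and 19125 genes were tested. Chd4 RNA averaged 54.9 ± 18.2 CPM in KO 48 hr and 107 ± 14.3 CPM in WT 48 hr libraries (SD, n = 3 each), against 87.8 ± 15.3 CPM in KO 0 hr and 86.8 ± 16.5 CPM in WT 0 hr libraries, so at 0 hr the KO and WT libraries had like levels of the targeted gene's RNA (log2 fold change 0.02, adjusted p = 0.99). Throughout, KO and WT stand for libraries that carry that label. Xist, the RNA of the inactive X chromosome, was at 0.856 to 1.59 CPM in the 6 KO libraries and at 75.4 to 293 CPM in the 6 WT libraries, so a difference of sex and of genotype cannot be told apart in these data. The B cell marker list summed to 5431 to 10320 CPM in every library, with none of its 8 genes at 0. T and NK cell markers, given with the libraries below, differed between KO libraries, and the erythroid list reached 3380 CPM in KO 0 hr replicate 4, against 280.2 to 883.6 CPM in the other 0 hr libraries. The neutrophil list summed to 14.07, 101.3 and 0.176 CPM in KO 0 hr replicates 4, 5 and 6, against 20.08 to 45.64 CPM in WT 0 hr libraries. At 48 hr it summed to 0.0519 to 0.950 CPM in KO and 0.256 to 0.515 CPM in WT libraries.

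Interferons are secreted cytokines that act through paired receptors and JAK kinases on transcription factors. Type I interferon assembles a complex, with IRF9 as a subunit, that binds the interferon-stimulated response element (ISRE), and interferon gamma leads to binding at the gamma-activated site (GAS). The genes so induced sense viral RNA, degrade or block it, tag proteins with ISG15, present antigen and call in other lymphocytes. LPS can induce many of the same genes through TLR4, which leads to interferon production and to IRF and NF-kB activity in responding cells.

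The promoters of 7 of these genes are shown because the results turn on them: Ifit1 and Ifit3, paralogs in the same gene cluster whose RNA went opposite ways with stimulation, Isg15, one of the genes that rose most, and Cxcl10, Irf1, Isg20 and Irf9, which differed between genotypes. Each is the RefSeq sequence on GRCm38.p6 (mm10) of 250 bases before to 50 bases after a start, written 5′ to 3′ on the gene's strand. Capitals mark matches to the ISRE core (GAAA, any 2 bases, GAAA) in the first 4 and to the GAS core (TTC, any 3 bases, GAA) in Irf1 and Isg20, on either strand, and Irf9 has neither and no capitals. The windows are Ifit1 at chr19:34640639-34640938 on the plus strand, Ifit3 at chr19:34583279-34583578 on the plus strand, Isg15 at chr4:156200769-156201068 on the minus strand, Cxcl10 at chr5:92348840-92349139 on the minus strand, Irf1 at chr11:53769764-53770063 on the plus strand, Isg20 at chr7:78913174-78913473 on the plus strand and Irf9 at chr14:55603735-55604034 on the plus strand.
Ifit1: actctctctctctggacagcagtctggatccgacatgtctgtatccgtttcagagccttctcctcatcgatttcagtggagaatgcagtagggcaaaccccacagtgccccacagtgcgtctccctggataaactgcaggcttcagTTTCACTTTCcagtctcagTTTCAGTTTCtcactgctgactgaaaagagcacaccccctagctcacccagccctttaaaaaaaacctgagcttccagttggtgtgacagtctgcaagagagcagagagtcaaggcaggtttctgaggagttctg
Ifit3: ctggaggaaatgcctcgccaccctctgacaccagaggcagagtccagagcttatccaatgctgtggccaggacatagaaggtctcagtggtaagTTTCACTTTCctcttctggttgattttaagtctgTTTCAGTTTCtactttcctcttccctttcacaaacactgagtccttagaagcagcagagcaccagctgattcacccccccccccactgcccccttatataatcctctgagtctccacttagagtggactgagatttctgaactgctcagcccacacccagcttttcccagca
Isg15: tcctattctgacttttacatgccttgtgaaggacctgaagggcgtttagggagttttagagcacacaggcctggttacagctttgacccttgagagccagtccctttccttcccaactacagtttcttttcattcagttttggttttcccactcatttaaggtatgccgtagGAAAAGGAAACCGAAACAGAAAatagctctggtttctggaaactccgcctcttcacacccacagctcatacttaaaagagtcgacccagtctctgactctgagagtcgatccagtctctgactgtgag
Cxcl10: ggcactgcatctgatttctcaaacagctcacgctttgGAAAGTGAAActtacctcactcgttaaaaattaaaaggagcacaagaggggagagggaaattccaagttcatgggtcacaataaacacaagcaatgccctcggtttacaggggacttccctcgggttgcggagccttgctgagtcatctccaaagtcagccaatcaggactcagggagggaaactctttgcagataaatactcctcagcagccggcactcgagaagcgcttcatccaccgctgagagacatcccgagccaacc
Irf1: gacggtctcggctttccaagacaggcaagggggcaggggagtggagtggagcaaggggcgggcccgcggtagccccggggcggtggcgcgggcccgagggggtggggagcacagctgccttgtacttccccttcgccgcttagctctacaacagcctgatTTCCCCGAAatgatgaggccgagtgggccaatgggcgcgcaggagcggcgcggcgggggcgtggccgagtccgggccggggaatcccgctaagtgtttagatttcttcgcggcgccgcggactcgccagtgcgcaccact
Isg20: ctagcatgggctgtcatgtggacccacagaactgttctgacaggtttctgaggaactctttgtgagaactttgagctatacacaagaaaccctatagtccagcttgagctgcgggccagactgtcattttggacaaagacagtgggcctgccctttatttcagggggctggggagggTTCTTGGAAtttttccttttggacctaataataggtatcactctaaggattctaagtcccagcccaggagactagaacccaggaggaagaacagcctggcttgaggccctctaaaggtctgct
Irf9: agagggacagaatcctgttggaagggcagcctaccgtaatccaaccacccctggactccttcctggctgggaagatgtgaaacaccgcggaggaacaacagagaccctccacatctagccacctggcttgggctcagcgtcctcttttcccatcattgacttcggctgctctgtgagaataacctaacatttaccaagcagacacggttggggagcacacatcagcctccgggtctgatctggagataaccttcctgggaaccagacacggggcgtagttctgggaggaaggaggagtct
The matches began 104 and 85 bases before the start in Ifit1, 156 and 122 bases before it in Ifit3, 78, 72 and 66 bases before it in Isg15, where they overlap, 213 bases before it in Cxcl10, 90 in Irf1 and 73 in Isg20. RefSeq gives 2 windows for Irf1, 3 for Isg20 and 2 for Irf9, of which the first is shown, and none of the others holds either core. In GENCODE M21 on mm10, the whole genes called between genotypes lie at chr11:53770014-53778374 (Irf1), chr14:55603571-55610030 (Irf9), chr5:92346638-92348889 (Cxcl10) and chr7:78913424-78920396 (Isg20). A promoter was on hand for 34 of the 43 genes. The ISRE core was in 14 of the 34 (41.2%), against 3.99% of 27025 genes with a promoter of the same length. The GAS core was in 10 of the 34 (29.4%), against 9.55%. Bst2, Eif2ak2, Ifitm3 and Oas1a held both. A match is a description of the letters only.

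Most of these genes differed between 48 hr and 0 hr, in the same direction in both genotypes. In KO, 37 of 43 rose and 4 fell after 48 hr with LPS and IL-4 (edgeR quasi-likelihood test, adjusted p below 0.05), while 33.0% of all tested genes rose and 37.7% fell. In WT, 35 rose and 4 fell, beside 33.0% and 40.9% of all tested genes. The 35 that rose in WT also rose in KO, and the same 4 genes, Irf1, Ifit3, Trim25 and Cxcl9, fell in both. The median log2 fold change of the 43 was 1.55 in KO and 1.69 in WT, against -0.30 in KO and -0.39 in WT for all tested genes. Individual values ran from -3.85 (Cxcl9) to 5.23 (Ifit1) in KO and from -3.40 (Cxcl9) to 5.19 (Ifit1) in WT. Mx1 and Rsad2 passed the test in neither genotype. Irf9 and Oas2 passed it in KO only, and neither passed the test of the difference between genotypes (adjusted p = 0.24 and 0.85). The call of Oas2 in KO (0.74, SE 0.29, adjusted p = 0.035) ended without KO 48 hr replicate 10 (0.070) or 12 (0.13), KO 0 hr replicate 6 (0.13) or WT 48 hr replicate 7 (0.058). It also ended under upper-quartile scaling, where the value was 0.09 (adjusted p = 0.78), and in a fit of the 6 KO libraries alone (0.081).

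**Figure D1:**
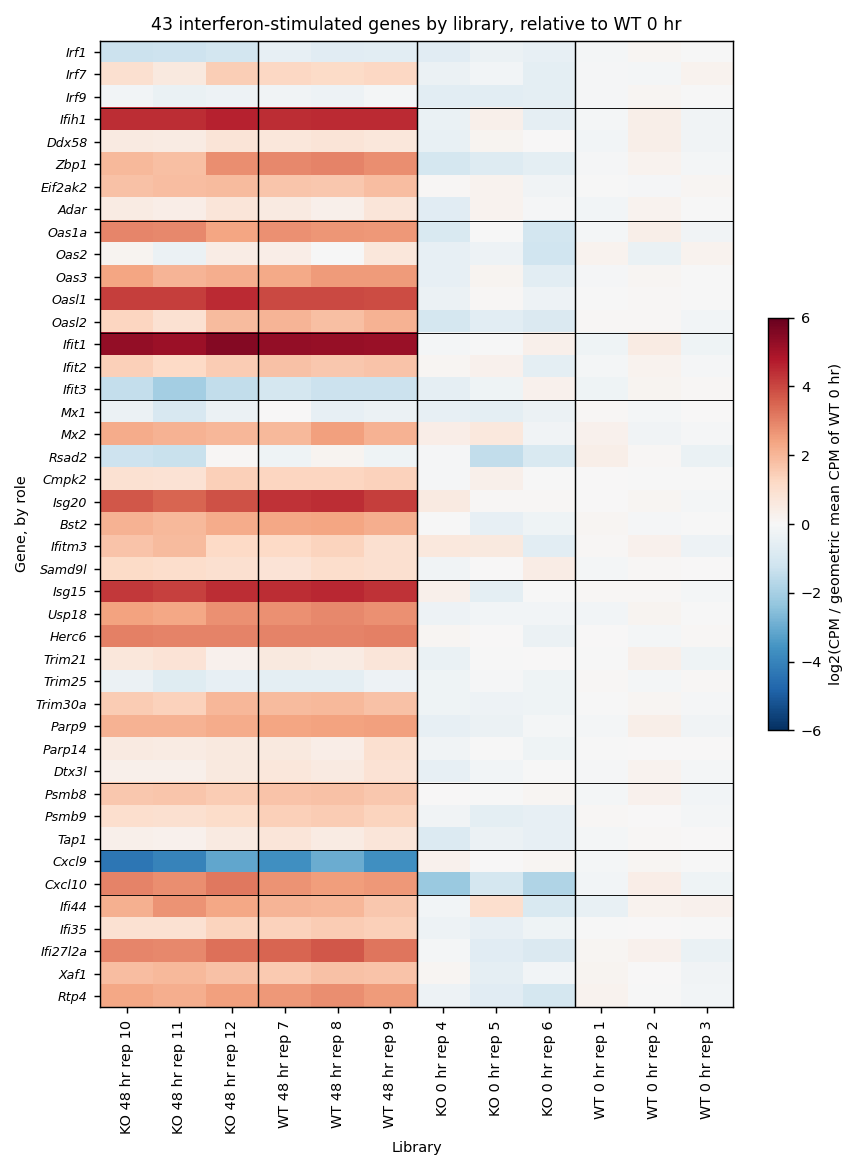
Colour shows log2 of CPM over the geometric mean CPM of the WT 0 hr libraries for the 43 genes (rows, grouped by role with thin lines) in the 12 libraries (columns, KO 48 hr, WT 48 hr, KO 0 hr, WT 0 hr). Most rows are red in all 6 libraries at 48 hr, Cxcl9 and Ifit3 are blue there, and the genotype differences are small beside the time differences.

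Of all tested genes, 70.7% in KO and 73.9% in WT were called over time, and some directions depended on the scaling of the libraries. Upper-quartile scaling moved the median of all genes by -0.63 in KO and -0.67 in WT on the log2 scale, and it left 30 of the 43 higher and 6 lower in KO, and 27 higher and 6 lower in WT. Genes with a log2 fold change above 1 stayed above 0 under each scaling, and of these Ifitm3 in WT lost its call (0.48, adjusted p = 0.16). Among promoters on hand, 12 of 14 genes with an ISRE core rose in KO and in WT (medians 2.14 and 2.08) and 1 fell, and of the 20 without it 17 rose in KO and 16 in WT (medians 1.42 and 1.38) and 3 fell in each. No test was made of that difference.

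Between genotypes the differences were fewer and smaller, and those that passed the test were lower in KO. At 48 hr, Irf1 and Isg20 were lower and none was higher, beside 0.544% of all tested genes lower and 1.47% higher (2.02% in all). Of the 43, 10 had an unadjusted p below 0.05 (14.4% of all tested genes did), and 1 of these, Oasl1, had the higher values in KO. DESeq2 called 5 genes lower and limma-voom 2, and neither called any higher. Shares of all tested genes were worked out for the main edgeR fit only. Counts from other tools and fits, here and below, thus have no such share beside them. The median log2 fold change of the 43 was -0.19, against 0.01 for all tested genes. All KO values lay below all WT values in 8 genes (18.6%, against 9.53% of all tested genes), which were Irf1, Ifit2, Ifit3, Isg20, Parp9, Psmb9, Ifi35 and Rtp4. All KO values lay above all WT values in 4 (9.30%, against 10.7%), which were Oasl1, Cxcl10, Ifi44 and Xaf1.

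At 0 hr, Irf1, Irf9 and Cxcl10 were lower in KO and none was higher, beside 0.429% of all tested genes lower and 0.680% higher (1.11% in all). Of the 43, 14 had an unadjusted p below 0.05 (10.7% of all tested genes did), each with lower values in KO. DESeq2 called 8 genes lower, adding Oasl2, Psmb9, Rtp4, Tap1 and Zbp1, limma-voom called 4, adding Tap1, and neither called any higher. Without shares of all tested genes for these tools, the larger counts cannot be read as a result about the 43. The median log2 fold change was -0.20, against -0.00 for all tested genes. All KO values lay below all WT values in 13 genes (30.2%, against 7.92% of all tested genes), and in no gene were all KO values above (against 7.02%). A fit of the 6 libraries at 0 hr alone called 0 of the 43, with 12 at an unadjusted p below 0.05. The genotype comparisons at 48 hr and 0 hr share no library, and Irf1 was the gene called in each. They are not independent, since both come from the same fit with a shared spread per gene. The difference in Xist was also common to both times. The log2 fold change was below 0 at both times in 25 of the 43 genes, beside 27.4% of all tested genes.

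**Figure D2:**
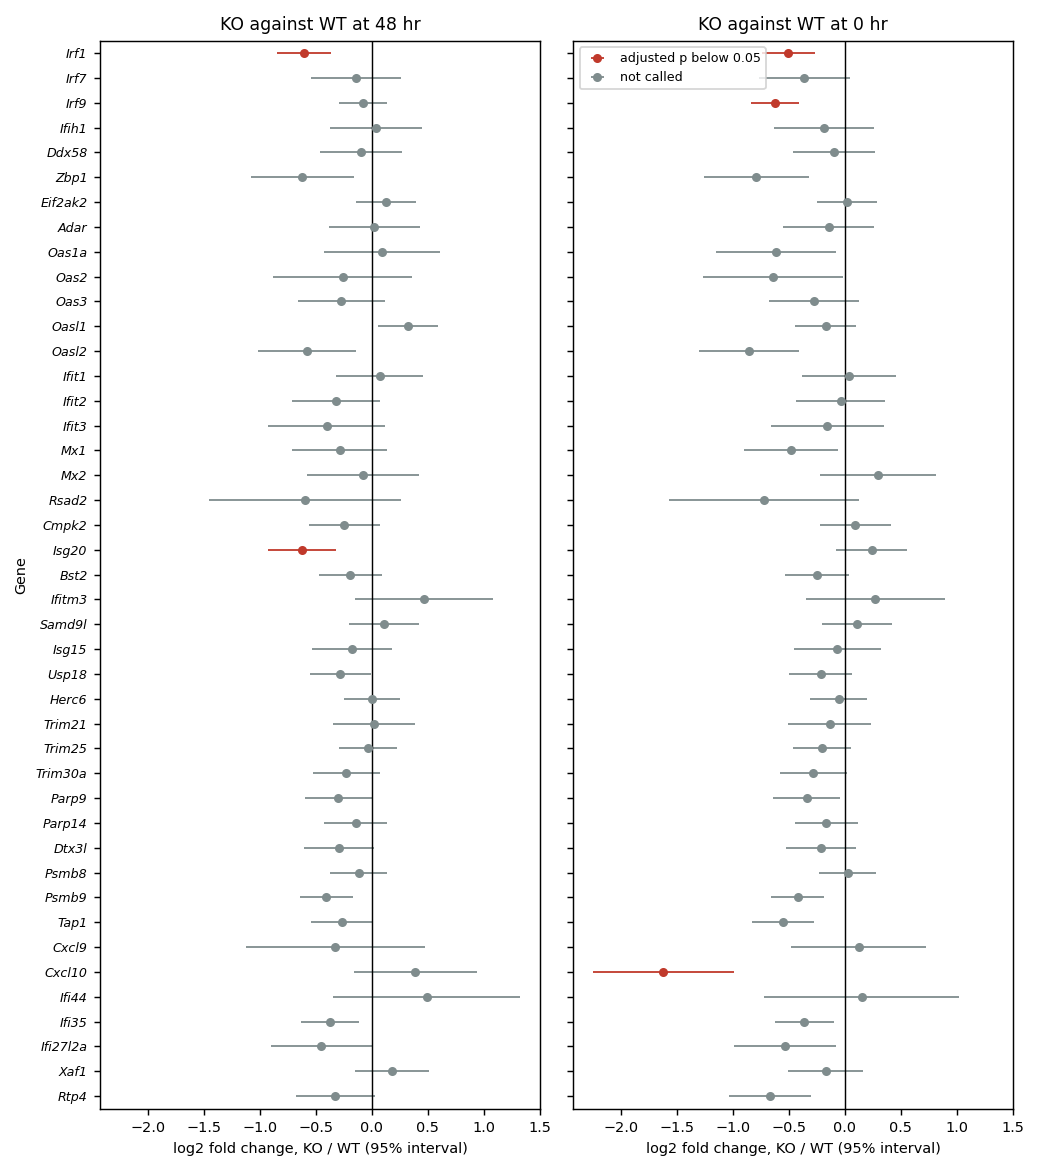
Points are log2 fold changes of KO over WT at 48 hr (left) and 0 hr (right), with 95% intervals from the edgeR fit, and red marks an adjusted p below 0.05. Irf1 is red in both panels, Isg20 at 48 hr, and Irf9 and Cxcl10 at 0 hr, all to the left of 0.

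Among the transcription factors, Irf1 encodes a regulator of both interferon responses that is itself induced by interferon gamma. Irf1 had 91.7, 92.8 and 103 CPM in KO 48 hr libraries, against 155, 139 and 143 CPM in WT 48 hr libraries. It had 136, 173 and 159 CPM in KO 0 hr libraries, against 207, 241 and 217 CPM in WT 0 hr libraries. The KO and WT libraries did not overlap at either time, and stimulated libraries of each genotype were below unstimulated ones. Irf1 was lower in KO at 48 hr (log2 fold change -0.61, SE 0.11, edgeR adjusted p = 0.013) and at 0 hr (-0.51, SE 0.11, adjusted p = 0.044). The 48 hr call was lost on leaving out KO replicate 10, KO replicate 11 or WT replicate 7 of that time (adjusted p = 0.078, 0.067 and 0.075). The 0 hr call held in 7 of 19 alternatives. Leaving out any 1 library other than KO 48 hr replicate 12 or KO 0 hr replicate 5 ended it, and its adjusted p reached 0.24 in a fit of the 6 libraries alone. With stimulation Irf1 fell by 0.70 in KO and by 0.60 in WT on the log2 scale (SE 0.11 each, adjusted p = 7e-05 and 0.00025).

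IRF9 is a DNA-binding subunit of the complex that type I interferon assembles. Irf9 had 74.3, 74.3 and 75.8 CPM in KO 0 hr libraries, against 108, 126 and 112 CPM in WT 0 hr libraries, so the KO values were nearly equal and all below WT. At 48 hr it had 103, 87.4 and 93.9 CPM in KO libraries, against 99.0, 94.1 and 107 CPM in WT libraries, which overlap. Irf9 was lower in KO at 0 hr (log2 fold change -0.62, SE 0.10, edgeR adjusted p = 0.0076), a call kept in 18 of 19 alternatives (adjusted p = 0.077 in the 6-library fit). At 48 hr the log2 fold change was -0.07 (95% interval -0.29 to 0.14, adjusted p = 0.81). Irf9 rose with stimulation in KO (0.34, SE 0.10, adjusted p = 0.0076), but under upper-quartile scaling it was lower (-0.29, adjusted p = 0.011). In WT its change over time was -0.21 (adjusted p = 0.075).

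Irf7, the IRF best known for driving type I interferon genes, rose with stimulation by 1.42 in KO and by 1.20 in WT on the log2 scale (SE 0.19 each, edgeR adjusted p = 1.7e-05 and 7.5e-05). It had 56.0, 43.8 and 81.0 CPM in KO 48 hr libraries, against 67.3, 64.2 and 67.8 CPM in WT 48 hr libraries. The KO libraries spread to both sides of the WT ones, and the log2 fold change between genotypes was -0.14 (95% interval -0.55 to 0.26, adjusted p = 0.80). At 0 hr Irf7 had 22.8, 25.9 and 19.0 CPM in KO libraries, against 27.5, 26.4 and 33.0 CPM in WT libraries, which do not overlap (-0.36, SE 0.19, adjusted p = 0.55).

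The sensors and double-stranded RNA enzymes all rose with stimulation in both genotypes, though upper-quartile scaling put Adar at -0.15 in WT. Ifih1, which encodes the RNA sensor MDA5, had 123, 123 and 142 CPM in KO 48 hr libraries, against 4.29, 7.07 and 3.90 CPM in KO 0 hr libraries. In WT it had 123, 126 and 128 CPM at 48 hr, against 5.18, 7.37 and 4.85 CPM at 0 hr. The times were far apart in each genotype (log2 fold change 4.66, SE 0.23, in KO and 4.44, SE 0.22, in WT, edgeR adjusted p = 5.2e-10 and 6.9e-10). Between genotypes Ifih1 differed by 0.04 at 48 hr (95% interval -0.37 to 0.45) and by -0.19 at 0 hr (-0.63 to 0.26). Ddx58, which encodes the RNA sensor RIG-I, rose less, by 0.69 in KO and in WT (SE 0.17, adjusted p = 0.0026 and 0.0025), and under upper-quartile scaling it was at 0.06 in KO and 0.02 in WT and was not called. Its levels were 143, 138 and 166 CPM in KO 48 hr libraries, against 70.4, 109 and 97.5 CPM in KO 0 hr libraries, and 155, 169 and 153 CPM in WT 48 hr libraries, against 87.1, 124 and 84.5 CPM in WT 0 hr libraries. Eif2ak2, which encodes the kinase PKR, rose by 1.82 in KO and 1.71 in WT, and Adar, which encodes an RNA editing enzyme, by 0.69 and 0.52. The Adar call in WT ended without WT 48 hr replicate 7 (adjusted p = 0.052) or 9 (0.090), or without WT 0 hr replicate 1 (0.085) or 3 (0.056), and neither Adar call held under upper-quartile scaling.

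Zbp1 encodes a sensor of Z-form nucleic acids that can start cell death. It had 123, 110.1 and 221 CPM in KO 48 hr libraries, against 231, 248 and 219 CPM in WT 48 hr libraries. KO replicate 12 lay within the WT range and the other KO libraries far below it, so the groups overlapped. At 48 hr the log2 fold change was -0.62 (SE 0.21, edgeR adjusted p = 0.17). Zbp1 was called lower without KO 48 hr replicate 12 (adjusted p = 0.0021). At 0 hr Zbp1 had 15.4, 18.8 and 21.2 CPM in KO libraries, against 30.2, 36.3 and 29.3 CPM in WT libraries, with no overlap (log2 fold change -0.79, SE 0.22, adjusted p = 0.12, or 0.018 with DESeq2). With stimulation it rose by 3.04 in KO and by 2.87 in WT (SE 0.23 each).

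**Figure D3:**
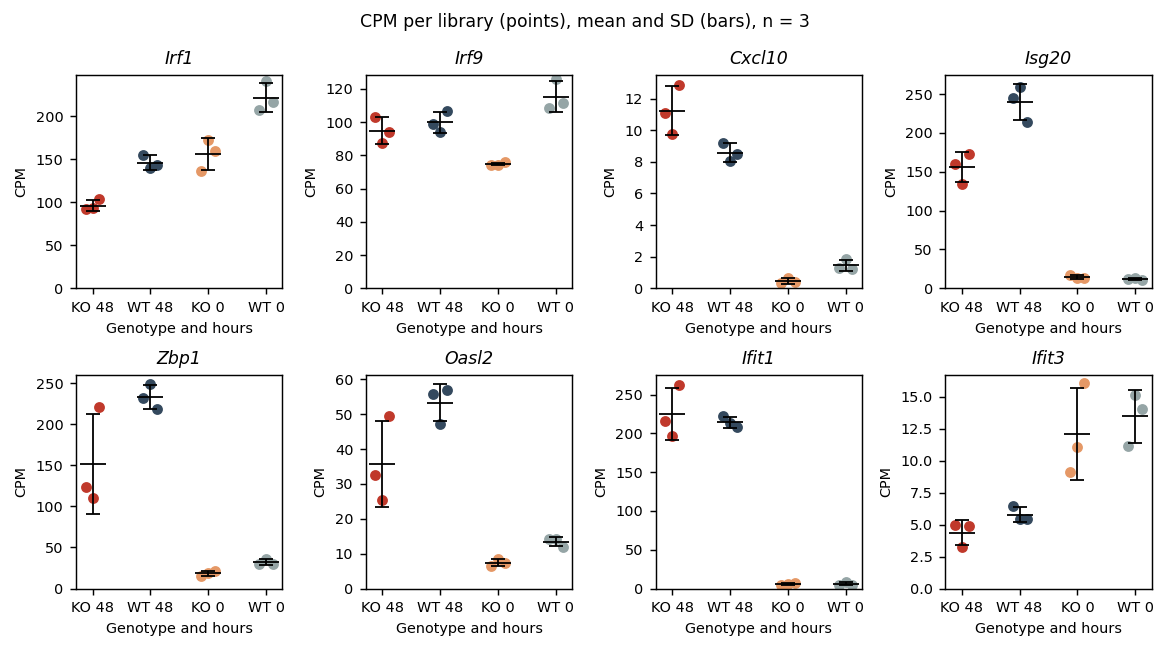
Points are CPM per library for 8 of the genes in KO 48 hr, WT 48 hr, KO 0 hr and WT 0 hr, with the mean and SD of 3 libraries as bars, on axes that start at 0. Irf1 is lower in KO at both times, Irf9 and Cxcl10 at 0 hr and Isg20 at 48 hr, one KO 48 hr library of Zbp1 and of Oasl2 stands near WT, and Ifit3 is lower at 48 hr while Ifit1 is higher.

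The oligoadenylate synthetases make short RNA chains that activate the ribonuclease RNase L. Oasl1, an OAS-like protein that in the mouse restrains translation of Irf7, had 328, 319 and 407 CPM in KO 48 hr libraries, against 285, 283 and 274 CPM in WT 48 hr libraries. All KO values were above WT, yet the difference did not pass the test (log2 fold change 0.32, SE 0.12, edgeR adjusted p = 0.23, 95% interval 0.06 to 0.59). At 0 hr Oasl1 had 14.5, 19.3 and 14.9 CPM in KO libraries, against 17.7, 19.1 and 18.1 CPM in WT libraries, which overlap. It rose with stimulation by 4.43 in KO and by 3.94 in WT (SE 0.14 each, adjusted p = 3e-11 and 5.1e-11).

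Oasl2, its paralog, stood the other way between genotypes. It had 32.4, 25.4 and 49.5 CPM in KO 48 hr libraries, against 55.9, 47.1 and 56.9 CPM in WT 48 hr libraries, so that KO replicate 12 alone reached the WT range. At 0 hr it had 6.42, 8.55 and 7.34 CPM in KO libraries, against 14.2, 14.2 and 12.0 CPM in WT libraries, with no overlap. The log2 fold changes were -0.58 at 48 hr (SE 0.20, edgeR adjusted p = 0.18) and -0.86 at 0 hr (SE 0.21, adjusted p = 0.075), and DESeq2 called the 0 hr difference lower. Oas1a, Oas2 and Oas3 lay between -0.27 and 0.09 at 48 hr and between -0.64 and -0.27 at 0 hr, with overlapping libraries and adjusted p from 0.37 to 0.92. With stimulation Oasl2 rose by 2.26 in KO and 1.98 in WT, Oas1a by 3.35 in KO and 2.64 in WT, and Oas3 by 2.47 in each. Oas1a has a near-identical paralog, Oas1g, and reads shared between them make both uncertain.

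The IFIT proteins bind viral RNA, IFIT1 by its cap. Ifit1 had 216, 197 and 263 CPM in KO 48 hr libraries, against 5.18, 5.68 and 7.13 CPM in KO 0 hr libraries. In WT it had 222, 213 and 208 CPM at 48 hr, against 4.77, 8.08 and 4.76 CPM at 0 hr. It rose by 5.23 in KO and by 5.19 in WT on the log2 scale (SE 0.22 each, edgeR adjusted p = 1.7e-10 and 1.6e-10). Between genotypes the libraries overlapped at both times, and the log2 fold changes were 0.07 at 48 hr (95% interval -0.32 to 0.46) and 0.04 at 0 hr (-0.38 to 0.46).

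Ifit3, in the same gene cluster on chromosome 19, went the other way. It had 5.00, 3.24 and 4.88 CPM in KO 48 hr libraries, against 9.09, 11.1 and 16.1 CPM in KO 0 hr libraries. In WT it had 6.49, 5.43 and 5.42 CPM at 48 hr, against 11.2, 15.2 and 14.1 CPM at 0 hr. Ifit3 fell by 1.47 in KO and by 1.22 in WT (SE 0.24 each, edgeR adjusted p = 0.00011 and 0.00044), without overlap between times and in each of 19 alternatives. Reads of Ifit3 can be split with its near-identical paralog Ifit3b, so either alone is uncertain. Ifit3b was lower at 48 hr too, with log2 fold changes of -2.13 in KO and -2.91 in WT (adjusted p = 0.0014 and 0.00016), so both paralogs were lower. The promoter of Ifit3 printed above holds 2 ISRE cores, as that of Ifit1 does. Ifit2, which lies 7111 bases from Ifit3, rose by 1.41 in KO and by 1.70 in WT. At 48 hr all KO values of Ifit2 and of Ifit3 lay below WT, by -0.32 and -0.40 (adjusted p = 0.47 and 0.50).

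Of the other direct effectors, Isg20, an RNA exonuclease, was the one called between genotypes. It had 160.4, 134 and 173 CPM in KO 48 hr libraries, against 245, 259 and 214 CPM in WT 48 hr libraries, with no overlap. At 0 hr it had 17.5, 12.6 and 12.6 CPM in KO libraries, against 12.1, 13.0 and 11.1 CPM in WT libraries, which overlap. The log2 fold change was -0.62 at 48 hr (SE 0.14, edgeR adjusted p = 0.04) and 0.24 at 0 hr (SE 0.15, adjusted p = 0.65). The 48 hr call held in 12 of 19 alternatives and was lost on leaving out KO replicates 10 or 11 or WT replicates 7 or 8 of that time, or any 1 WT 0 hr library, with adjusted p of 0.054 to 0.15. With stimulation Isg20 rose by 3.45 in KO and by 4.31 in WT (SE 0.16 each, adjusted p = 3.1e-10 and 8e-11).

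Samd9l, which encodes a restriction factor of poxviruses, rose by 0.95 in each genotype (SE 0.15, edgeR adjusted p = 6.1e-05 in KO and 5.8e-05 in WT), a call that ended in WT under upper-quartile scaling (adjusted p = 0.068). It had 365, 345 and 324 CPM in KO 48 hr libraries, against 293, 341 and 326 CPM in WT 48 hr libraries. At 0 hr it had 142, 166 and 227 CPM in KO libraries, against 151, 176 and 168 CPM in WT libraries. Genotypes overlapped, with a log2 fold change of 0.11 at each time (95% interval -0.21 to 0.42). Bst2, which encodes the virion tether tetherin, rose by 2.34 in KO and 2.29 in WT, Mx2 by 1.78 and 2.15, Cmpk2, a mitochondrial nucleotide kinase, by 0.99 and 1.33, and Ifitm3, a blocker of virus entry, by 1.35 and 1.15. Mx1 and Rsad2, which encodes viperin, were exceptions among classical interferon targets. Mx1 had 11.4, 7.47 and 11.6 CPM in KO 48 hr libraries, against 10.4, 9.92 and 11.5 CPM in KO 0 hr libraries, and its log2 fold changes over time were -0.06 in KO (adjusted p = 0.79) and -0.25 in WT (adjusted p = 0.25). Under upper-quartile scaling Mx1 was called lower in KO (-0.70) and in WT (-0.93). Rsad2 had log2 fold changes of -0.00 in KO (SE 0.40, adjusted p = 0.99) and -0.13 in WT (SE 0.39, adjusted p = 0.77), with libraries that ranged from 4.04 to 10.6 CPM in KO 48 hr and from 3.65 to 9.89 CPM in KO 0 hr.

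ISG15 is a ubiquitin-like protein joined to other proteins in the interferon response. Isg15 had 112, 103 and 129 CPM in KO 48 hr libraries, against 131, 137 and 120.1 CPM in WT 48 hr libraries. At 0 hr it had 7.39, 3.96 and 5.92 CPM in KO libraries, against 6.27, 6.21 and 5.57 CPM in WT libraries. Genotypes overlapped at both times (log2 fold change -0.17, 95% interval -0.53 to 0.19, at 48 hr and -0.07, -0.45 to 0.32, at 0 hr). It rose by 4.32 in KO and by 4.43 in WT (SE 0.19 and 0.20, edgeR adjusted p = 2.8e-10 and 2.2e-10). Herc6, the main ISG15 ligase of the mouse, rose by 3.05 in KO and 3.00 in WT, and Usp18, which removes ISG15 and damps the type I receptor, by 2.72 and 2.78.

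Trim30a, a TRIM-family ubiquitin ligase gene, had 230.4, 209.6 and 322 CPM in KO 48 hr libraries, against 303, 314 and 274 CPM in WT 48 hr libraries. KO replicate 12 was the highest library of all 6 and the other 2 KO libraries were the lowest (log2 fold change -0.23, SE 0.14, edgeR adjusted p = 0.51, or -0.43 and called lower without KO 48 hr replicate 12). At 0 hr it had 66.7, 65.0 and 67.4 CPM in KO libraries, against 78.3, 86.4 and 77.4 CPM in WT libraries, which do not overlap (-0.28, SE 0.14, adjusted p = 0.51). Trim30a rose with stimulation by 1.94 in KO and by 1.88 in WT, but the gene sits among close Trim30 paralogs, which makes its count uncertain. Trim25, a ubiquitin ligase for RIG-I, was the member of this role that fell, by 0.32 in KO and by 0.49 in WT (SE 0.12 each, adjusted p = 0.029 and 0.0022), and its KO call ended without KO 48 hr replicate 11 (0.078) or 12 (0.059) or KO 0 hr replicate 5 (0.099). Trim21, a cytosolic antibody receptor, Parp14, an ADP-ribosyltransferase, and Dtx3l rose by 0.58 to 0.74 in both genotypes, but under upper-quartile scaling Trim21 was at -0.09 in WT and Dtx3l at -0.01 in KO, and none of the 3 was called. Parp9, the partner of the ubiquitin ligase DTX3L, rose by 2.45 in KO and 2.41 in WT. The 2 genes overlap by 682 bases on opposite strands, and reads there cannot be told apart without strand. All KO values of Parp9 at 48 hr lay below WT (log2 fold change -0.30, adjusted p = 0.34).

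The antigen processing genes encode immunoproteasome subunits and a peptide transporter for MHC class I. Psmb8 had 914, 950.0 and 854 CPM in KO 48 hr libraries, against 1000.4, 1019 and 926 CPM in WT 48 hr libraries, which overlap (log2 fold change -0.12, 95% interval -0.37 to 0.14). With stimulation it rose by 1.55 in KO and by 1.69 in WT (SE 0.12 each, edgeR adjusted p = 6.3e-08 and 2.5e-08). Psmb9 had 322, 315 and 341 CPM in KO 48 hr libraries, against 431, 461 and 403 CPM in WT 48 hr libraries. At 0 hr Psmb9 had 138, 105 and 115 CPM in KO libraries, against 167, 163 and 149 CPM in WT libraries. The KO values were all below WT at both times, and neither difference passed the edgeR test (-0.40, SE 0.11, adjusted p = 0.089 at 48 hr and -0.42, SE 0.11, adjusted p = 0.11 at 0 hr). DESeq2 called Psmb9 lower at 48 hr (adjusted p = 0.005) and at 0 hr (0.016), as did edgeR on the 48 hr libraries alone (0.022). With stimulation Psmb9 rose by 1.45 in KO and by 1.43 in WT. Tap1 had 178, 243 and 221 CPM in KO 0 hr libraries, against 292, 328 and 321 CPM in WT 0 hr libraries, again with no overlap (-0.55, SE 0.13, adjusted p = 0.063, called by DESeq2 and limma-voom). At 48 hr Tap1 differed by -0.26 (adjusted p = 0.38), and it rose over time by 0.93 in KO and by 0.64 in WT, where upper-quartile scaling put it at -0.03. Psmb9 and Tap1 lie head to head on chromosome 17 and overlap by 212 bases on opposite strands, so reads there cannot be told apart.

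The 2 chemokines, ligands of the receptor CXCR3 on activated T cells, lie 18558 bases apart on chromosome 5 and went opposite ways over time. Cxcl10 had 0.304, 0.678 and 0.412 CPM in KO 0 hr libraries, against 1.28, 1.86 and 1.19 CPM in WT 0 hr libraries. At 48 hr it had 11.1, 9.76 and 12.9 CPM in KO libraries, against 9.19, 8.02 and 8.49 CPM in WT libraries. Every KO library was thus below every WT library at 0 hr and above every one at 48 hr. At 0 hr the log2 fold change was -1.62 (SE 0.29, edgeR adjusted p = 0.015), from 88 counts over the KO group and 235 over the WT group. Leaving out KO 0 hr replicate 4 or WT 0 hr replicate 2 ended the call (adjusted p = 0.052 and 0.062), as did fitting the 0 hr libraries alone (0.14). At 48 hr it was 0.39 (SE 0.26, adjusted p = 0.55). Cxcl10 rose with stimulation by 4.58 in KO and by 2.57 in WT (SE 0.31 and 0.28, adjusted p = 1.3e-08 and 1.7e-06). Cxcl9 had 0.148, 0.185 and 0.337 CPM in KO 48 hr libraries, against 3.53, 2.99 and 3.20 CPM in KO 0 hr libraries. In WT it had 0.232, 0.378 and 0.230 CPM at 48 hr, against 2.72, 3.26 and 2.93 CPM at 0 hr. It fell by 3.85 in KO and by 3.40 in WT (SE 0.34 and 0.33, adjusted p = 2.4e-07 and 6.2e-07), with 26 counts left over the KO group and 32 over the WT group at 48 hr, and genotypes overlapped. Macrophages are a known source of Cxcl9, and the 10 monocyte and macrophage markers fell with it: they summed to 25.0 to 45.1 CPM in KO 48 hr, against 152.5 to 395.6 CPM in KO 0 hr libraries, and to 20.3 to 22.8 CPM in WT 48 hr, against 133.8 to 263.3 CPM in WT 0 hr libraries. None of these markers was at 0 in a group, and their part in the falls of Cxcl9 and Ifit3 was not tested.

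The other induced genes all rose with stimulation in both genotypes. Ifi27l2a, a small mitochondrial protein gene, had 365, 349 and 472 CPM in KO 48 hr libraries, against 546, 626 and 448 CPM in WT 48 hr libraries. At 0 hr it had 44.6, 30.2 and 26.5 CPM in KO libraries, against 52.8, 57.1 and 36.7 CPM in WT libraries. The genotypes overlapped at both times, through KO replicate 12 at 48 hr and KO replicate 4 at 0 hr (log2 fold changes -0.45, edgeR adjusted p = 0.35, and -0.53, adjusted p = 0.35). It rose by 3.55 in KO and by 3.47 in WT (SE 0.23 each). Ifi35 and Rtp4, a chaperone of membrane receptors, had all KO values below WT at both times without passing the edgeR test. Ifi35 differed by -0.37 at 48 hr and -0.36 at 0 hr (SE 0.12 each, adjusted p = 0.15 and 0.24), and Rtp4 by -0.32 (SE 0.16, adjusted p = 0.40) and -0.67 (SE 0.17, adjusted p = 0.091). DESeq2 called Ifi35 lower at 48 hr (adjusted p = 0.027) and Rtp4 at 0 hr (0.013). Ifi44 and Xaf1, a partner of the apoptosis inhibitor XIAP, had all KO values above WT at 48 hr, also short of the test (0.49 and 0.18, adjusted p = 0.64 and 0.67). The rise with stimulation was 1.43 in KO and 1.44 in WT for Ifi35, 2.99 and 2.65 for Rtp4, 2.21 and 1.87 for Ifi44, and 2.02 and 1.67 for Xaf1, on the log2 scale.

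**Figure D4:**
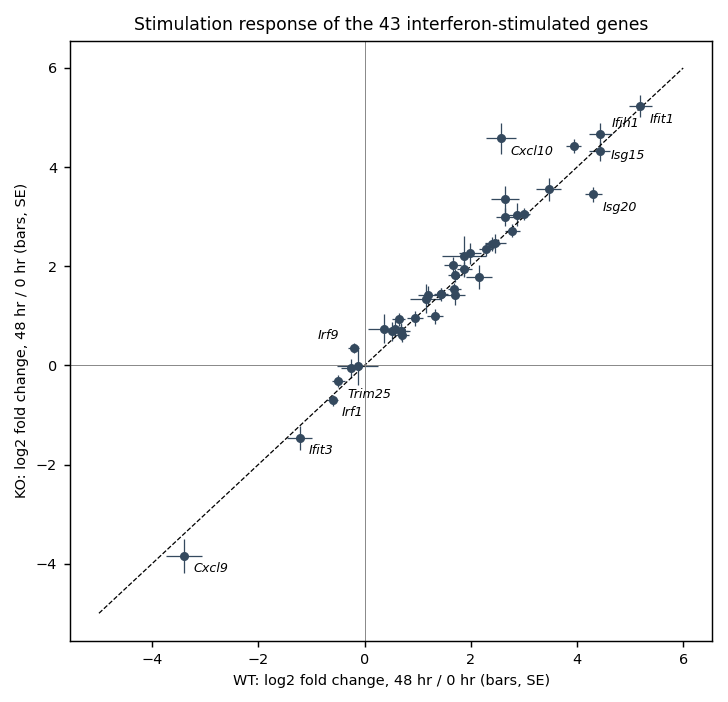
Each point is 1 of the 43 genes, with its log2 fold change from stimulation in WT on the horizontal axis and in KO on the vertical axis, and bars give standard errors. Points lie along the dashed line of equality, with Cxcl10 above it and Isg20 below it, and Cxcl9 and Ifit3 in the lower left.

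Whether stimulation acted differently on the genotypes was tested as an interaction. The edgeR test called 0 of the 43 genes (0.115% of all tested genes were called, 0.0680% higher and 0.0471% lower), with 4 at an unadjusted p below 0.05 (8.61% of all tested genes), while DESeq2 called 3 and limma-voom 0. The largest was Cxcl10, whose rise was greater in KO by 2.01 on the log2 scale (SE 0.39, 95% interval 1.17 to 2.84, adjusted p = 0.085). It was called by DESeq2 (1.96, adjusted p = 8.9e-05) and without KO 0 hr replicate 5 (2.38, adjusted p = 0.032). Isg20 had an interaction of -0.86 (SE 0.20, adjusted p = 0.18) and Irf9 of 0.55 (SE 0.14, adjusted p = 0.24), and DESeq2 called both (adjusted p = 0.0097 and 0.023). The fourth with an unadjusted p below 0.05 was Oasl1, at 0.49 (adjusted p = 0.45).

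The libraries of a group differed among themselves. The median log2 ratio of the 43 genes to the WT mean of the same time was -0.20, -0.36 and -0.045 in KO 48 hr replicates 10, 11 and 12, against -0.027 to 0.011 in WT 48 hr libraries. It was -0.32, -0.16 and -0.27 in KO 0 hr replicates 4, 5 and 6, against -0.046 to 0.11 in WT 0 hr libraries, which spread about as far as the KO ones. Each WT library is part of the mean it is set against, and no KO library is. The WT values are thus drawn toward 0 by construction, and their range is no measure of how far KO differs. KO 48 hr replicate 12 was the KO library nearest to the WT mean in 27 of the 43 genes (62.8%, against 42.6% of all tested genes). At 0 hr the KO library most often nearest was replicate 5, in 18 genes (41.9%, against 29.3%), and replicate 6 was nearest in 15 (34.9%, against 40.8%). The 10 T cell markers summed to 115.5, 115.6 and 46.9 CPM in KO 48 hr replicates 10, 11 and 12, against 40.2 to 44.7 CPM in WT 48 hr libraries. At 0 hr they summed to 124.7, 131.8 and 62.6 CPM in KO replicates 4, 5 and 6, against 65.1 to 72.6 CPM in WT 0 hr libraries. The 9 NK cell markers followed the same split, with 13.9, 19.8 and 7.13 CPM in KO 48 hr replicates 10, 11 and 12, against 5.90 to 6.86 CPM in WT 48 hr libraries, and none of these T or NK markers was at 0 in a group. KO replicates 12 and 6 were thus the KO libraries close to WT in these sums. Of the 10 T cell markers, edgeR called 0 at 48 hr, with log2 fold changes from -0.79 to 1.39, and 1 higher at 0 hr, Zap70. Of the 9 NK cell markers, it called 1 higher at 48 hr, Prf1, and 0 at 0 hr. Beside these, 1.47% of all tested genes were called higher at 48 hr and 0.680% at 0 hr. With stimulation Gzmb was called higher in both genotypes, while Klrb1c, Klrd1, Klrk1, Ncr1 and Nkg7 were called lower in both. The NK sum thus mixes opposite changes and does not measure the number of such cells. The part of the T and NK markers in the ISG differences was not tested. Plasmacytoid dendritic cell markers, of a cell type known for making type I interferon, summed to 431.8 to 446.8 CPM in KO 48 hr, against 378.8 to 401.6 CPM in WT 48 hr libraries, with 1 of 8, Klk1, at 0 in both groups. At 0 hr they summed to 470.6 to 482.8 CPM in KO, against 408.6 to 427.8 CPM in WT libraries. Of the 7 tested, none was called at either time by edgeR, DESeq2 or limma-voom. With edgeR, 3 at 48 hr and 2 at 0 hr had an unadjusted p below 0.05, beside 14.4% and 10.7% of all tested genes. At 48 hr the log2 fold changes of the 7 ran from -0.71 to 1.19, with a median of 0.08. Over time Cox6a2 was called higher in both genotypes and Tcf4 in WT, while Bcl11a, Ccr9, Runx2 and Siglech were called lower in both. Their sum thus mixes opposite changes and does not measure the number of such cells. Plasma cell markers summed to 1634 to 1880 CPM in KO 48 hr, against 1394 to 1519 CPM in WT 48 hr libraries. Of these 8, edgeR called 3 higher at 48 hr, Derl3, Prdm1 and Sdc1, beside 1.47% of all tested genes, while DESeq2 called 4 and limma-voom 2. At 0 hr edgeR called 1 higher, Sdc1, beside 0.680%. Dendritic cell markers summed to 207.2 to 291.9 CPM in KO 48 hr, against 307.3 to 308.6 CPM in WT 48 hr libraries, which do not overlap, with 1 of 7, Clec9a, at 0 in KO. At 0 hr they summed to 286.1 to 422.6 CPM in KO, against 407.9 to 605.8 CPM in WT libraries. Of the 7, edgeR called 0 at 48 hr (2 at an unadjusted p below 0.05, 1 called by DESeq2 and 0 by limma-voom) and 0 at 0 hr (1, 0 and 0). Between genotypes at 48 hr, log2 fold changes of the 7 ran from -3.48 to 0.64. Over time Batf3 and Flt3 were called higher in both genotypes, while Ccr7, Clec9a, Itgax and Xcr1 were called lower in both. The dendritic cell sum thus also mixes opposite changes and does not measure the number of such cells. The part of these markers in the ISG differences was likewise not tested. In bulk RNA, fewer cells of a type and less RNA per cell cannot be told apart.

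**Figure D5:**
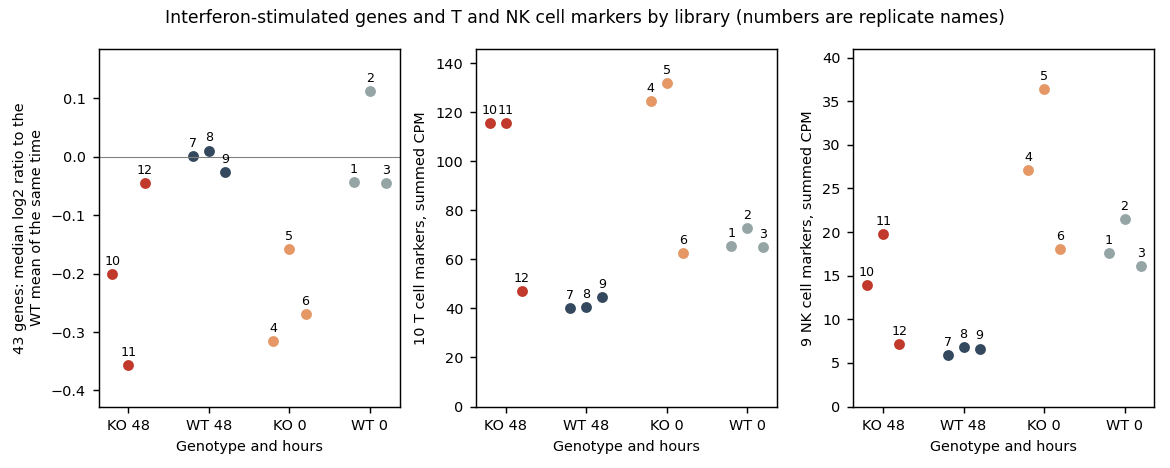
Each point is a library, numbered by its replicate name: the median log2 ratio of the 43 genes to the WT mean of the same time (left), and the summed CPM of 10 T cell markers (middle) and 9 NK cell markers (right), for KO 48 hr, WT 48 hr, KO 0 hr and WT 0 hr. On the left, WT libraries are part of their own reference mean and so lie near 0 by construction. KO replicate 12 is near the WT 48 hr libraries in all 3 panels, and KO replicate 6 is near the WT 0 hr libraries in the marker panels and below them on the left.

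Leaving out KO 48 hr replicate 12 raised the number of genes called lower at 48 hr to 6, by adding Zbp1 (adjusted p = 0.0021), Oasl2 (-0.88), Ifi35 (-0.52) and Trim30a (-0.43) to Irf1 (-0.66) and Isg20 (-0.70). That replicate was the KO library most often nearest to the WT mean in these same genes. More calls without it were therefore built in and are no further support for a difference. The same 6 were called when KO 0 hr replicate 6 was left out as well. At 0 hr, leaving out both gave 5, with Oasl2 (-0.85) and Zbp1 (-0.90) beside Cxcl10, Irf1 and Irf9. The same 5 were called at 0 hr without KO 48 hr replicate 12 alone, which is part of the shared fit but not of that comparison. Without KO 0 hr replicate 6 alone the count at 0 hr was 2. By contrast, edgeR called 0 genes at 48 hr without KO replicate 10, KO replicate 11 or WT replicate 7, with 5, 7 and 8 at an unadjusted p below 0.05.

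The rest of the pathway was described from fixed lists of genes outside the 43. RNA of the 11 interferon genes listed was scarce at these 2 times. Together they had 0.844 to 1.03 CPM in KO 48 hr, 0.358 to 1.08 CPM in WT 48 hr, 0.418 to 0.853 CPM in KO 0 hr and 0.0988 to 0.316 CPM in WT 0 hr libraries. Of the 11, 2 had enough counts to test, Ifng and Ifnz. Interferon genes outside the list were not looked at, and no time between 0 hr and 48 hr was sampled. Ifnb1 had no count in either 48 hr group. Ifng had 42 counts over the KO 48 hr, 41 over the WT 48 hr, 64 over the KO 0 hr and 7 over the WT 0 hr group, and neither it nor Ifnz was called between genotypes. Over time Ifng was called higher in WT (log2 fold change 3.00), beside 33.0% of all tested genes, and was not called in KO. Of 9 receptor and JAK genes, 1 was lower in KO at 48 hr, beside 0.544% of all tested genes. It was Ifngr2, a chain of the interferon gamma receptor, with 202, 194 and 244 CPM in KO libraries, against 307, 286 and 285 CPM in WT libraries (log2 fold change -0.46, SE 0.10, edgeR adjusted p = 0.035).

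Nlrc5, the activator of MHC class I genes, was the 1 of 10 other MHC class I pathway genes called, at 0 hr (-1.13, SE 0.19, edgeR adjusted p = 0.0088). Beside it, 0.429% of all tested genes were called lower at 0 hr. DESeq2 called 1 of the 10 at 48 hr and 2 at 0 hr, and limma-voom 0 and 1, with 4 and 2 at an unadjusted p below 0.05 with edgeR. Of 15 other sensors and adaptors, edgeR called 0 at 48 hr (1 at an unadjusted p below 0.05, 1 called by DESeq2 and 0 by limma-voom) and 0 at 0 hr (2 at an unadjusted p below 0.05, 0 called by DESeq2 and by limma-voom). Among all tested genes, edgeR called 2.02% at 48 hr and 1.11% at 0 hr, with 14.4% and 10.7% at an unadjusted p below 0.05.

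The guanylate-binding and immunity-related GTPases are cytosolic proteins that attack vacuoles holding pathogens. Of 18 such genes outside the 43, edgeR called 7 lower and 0 higher in KO at 48 hr, beside 0.544% and 1.47% of all tested genes. The counts at 0 hr were 5 lower and 1 higher, beside 0.429% and 0.680%. Gbp2 had 441, 433 and 537 CPM in KO 48 hr libraries, against 1327, 1351 and 1323 CPM in WT 48 hr libraries (log2 fold change -1.50, SE 0.13, adjusted p = 4.2e-05). Iigp1 had 1.38, 1.37 and 1.06 CPM in KO 48 hr libraries, against 9.73, 7.75 and 8.90 CPM in WT 48 hr libraries (-2.79, SE 0.24, adjusted p = 2.6e-05). Their median log2 fold changes were -0.59 at 48 hr and -0.52 at 0 hr, beside -0.19 and -0.20 for the 43 genes described here. No test of the difference between the lists was made, and both were chosen with earlier results of these data known.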

How the data were processed

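RNA of 12 libraries was amplified as cDNA with a SMART-Seq kit and sequenced as paired ends, per the labels' protocols, and the kit does not record strand. The deposited table holds estimated counts per transcript as whole numbers. The tools Trimmomatic 0.36, Salmon 0.8.2, bcl2fastq 2.20.0.422 and DESeq2 1.14.1 and the build mm10 are named in the submitters' processing notes. Because Salmon divides ambiguous reads between transcripts, near-identical paralogs have uncertain values.

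Spaces were trimmed from 344 names, and the 63759 transcript rows were added up per gene to 32699 symbols. The 12 libraries held 39.0 M to 53.2 M counts (median 51.1 M), and no 2 libraries of a group agreed within sampling noise. Genes passing edgeR's filterByExpr (19125) received TMM scaling factors (0.723 to 1.42), and 1 model of the 4 groups was fitted in edgeR 4.0.16 under R 4.3.3 (robust quasi-likelihood, 8 residual degrees of freedom, common dispersion 0.0534). CPM use the scaled library sizes. Adjusted p-values are Benjamini-Hochberg values across the 19125 genes, and called means adjusted p below 0.05. The procedure was tested on simulated data.

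The 43 genes and all gene lists were chosen with earlier results of these data known. Every one of the 43 may be named. Values per library are given for genes called between genotypes, up to 3 with the lowest p per comparison, 1 or 2 per role, and others added after their values were seen. Alternatives were relative log expression and upper-quartile scaling, no filter, DESeq2 1.42.0, limma-voom (limma 3.58.1), the 6 libraries compared alone, and each library left out. KO 0 hr replicate 6 and KO 48 hr replicate 12 were also left out together. Positions are from GENCODE M21 on mm10. The list of signal transducers is not reported here.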

Additional observations from a re-analysis of the deposited data

How the results depend on the processing

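Between genotypes, the direction of each called gene was the same under every alternative run, while the number of calls was not stable. At 0 hr the main count was 3, against 5 with upper-quartile scaling, 8 with DESeq2, 5 without KO 0 hr replicate 6 and KO 48 hr replicate 12, and 0 with only the 6 libraries compared. Leaving out 1 library gave 1 to 5 calls. At 48 hr the main count was 2, against 5 with DESeq2, 6 without those 2 libraries together, and 0 to 6 with 1 library left out. For the interaction the main count was 0, against 3 with DESeq2 and 0 to 1 with 1 library left out. Over time the counts moved by less than 1.5 times, with 38 to 39 called in WT and 39 to 41 in KO when 1 library was left out.

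Upper-quartile scaling turned the direction over time of 5 genes: Adar (-0.1513), Tap1 (-0.03432) and Trim21 (-0.0874) in WT, and Dtx3l (-0.005628) and Irf9 (-0.2898) in KO. That scaling moved the median of all genes, and no other alternative turned a direction of a called gene.

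No paired analysis was possible because the labels number the libraries 1 to 12 without repeats. With 3 libraries a group, genes that missed the threshold are not shown to be alike, and low genes such as Cxcl9, with 26 counts over the KO 48 hr group, are measured with little precision.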
